A study of Zea mays with 9 samples.

Results

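Auxin (indole-3-acetic acid) is the plant hormone made from tryptophan in a short pathway that ends with flavin monooxygenases of the YUCCA family. It moves between cells through PIN efflux carriers, and cells read it when Aux/IAA repressors are degraded and release ARF transcription factors on their target genes. In the maize seed auxin builds up in the endosperm as it grows and fills, and the defective endosperm18 mutant of yuc1 has small, auxin-poor kernels. The 6 genes described here stand at these stages of the pathway, except that the sources used here state no role for AUX3. They are yuc1 (GRMZM2G091819, synthesis), PIN1a (GRMZM2G098643), PIN1b (GRMZM2G074267) and PIN1c (GRMZM2G149184) for efflux, AUX3 (GRMZM2G004696), and ARF17 (GRMZM2G159399) for response. They are 6 of the 110028 gene models counted. They were chosen by their name or place in the pathway and by their levels at these same stages, so their levels are given as a description and no test is made.

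The samples were inbred B73 maize, grown in a greenhouse: endosperm freed of embryo and pericarp at 8, 10 and 12 days after self-pollination (DAP), whole kernels at 2, 3, 4 and 6 DAP, and whole unpollinated kernels, given as 0 DAP. A whole kernel holds the maternal ovary wall and nucellus and, after fertilisation, the embryo and endosperm, so unpollinated kernels hold maternal tissue with an unfertilised embryo sac. Poly(A) RNA of 1 of the 3 biological samples collected per stage was sequenced on a SOLiD 4 system, with a pair of technical replicates, named a and b, of the RNA taken at 0 DAP. The 9 libraries held between 17716275 and 40145710 counted reads.

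Levels are given as v, the CPM (counts scaled to a common library size) with TMM scaling, which sets the bulk of genes level between libraries. The 100 most counted models took 6.89% to 9.43% of reads in kernels and 19.6%, 55.5% and 85.8% at 8, 10 and 12 DAP, so the late values depend on this scaling. A gene is said to rise or fall where 3 conditions were met: a 4-fold or greater difference in v + 1, a v of 10 or more in one of the stages, and a ratio whose exact 95% interval did not hold 1. With 1 sample per stage there is no biological replicate and no p-value, and intervals cover counting error only. Between the 2 libraries of 0 DAP RNA, the log2 ratio had an SD of 0.87 over models whose v lay between 1 and 10. It was 0.38 for models between 10 and 100 and 0.29 for those beyond 100.

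The labels of the tissues were set against marker genes. The summed v of 4 genes of maternal floral organs (zag1, zmm7, zmm8 and zmm29) was 54.4 to 129 in endosperm and 857 to 1239 in kernels. That of 7 starchy endosperm genes was 3954 to 36778 in endosperm and 32.2 to 66.2 in kernels, and that of 6 genes of the basal transfer layer was 611 to 3282 in endosperm and 12.1 to 746 in kernels. Of the latter 6 genes, mrp1 did not follow the sum, with v = 1.06 to 2.08 in endosperm and 0.954 to 6.41 in kernels. The sum of 2 genes of the embryo-surrounding region was 91.3 to 119 in endosperm and 0.296 to 120 in kernels, and that of 2 matched aleurone genes of 3 was 73.8 to 105 in endosperm and 1.47 to 5.27 in kernels. Of the 5 embryo markers 3 were matched, with a summed v of 63.2 to 239 in endosperm and 2.36 to 10.4 in kernels. Of these, lec1 was at 0 in all endosperm libraries, but it had at most 0.0732 in kernels as well. kn1 had at most 0.575 in endosperm and 0.878 to 10.1 in kernels, with 6.43 in unpollinated ones. The oil body gene ole1, which is also known from aleurone, had 62.7 to 239 in endosperm and at most 1.42 in kernels. Whether the endosperm samples held embryo was not tested.

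The 6 genes followed 4 courses. yuc1 had v of at most 2.32 in the kernel libraries and at least 146 in endosperm. AUX3 and ARF17 rose at 2 DAP, were highest at 6 DAP and fell at 8 DAP. PIN1a rose at 2 DAP and had its highest v at 3 DAP. PIN1b and PIN1c stayed at or below 2.07 at every stage, so neither could rise or fall by the rule, which asks for a v of 10. All 6 genes had v of at least 1 in a library, as 44687 models did.

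**Figure D1:**
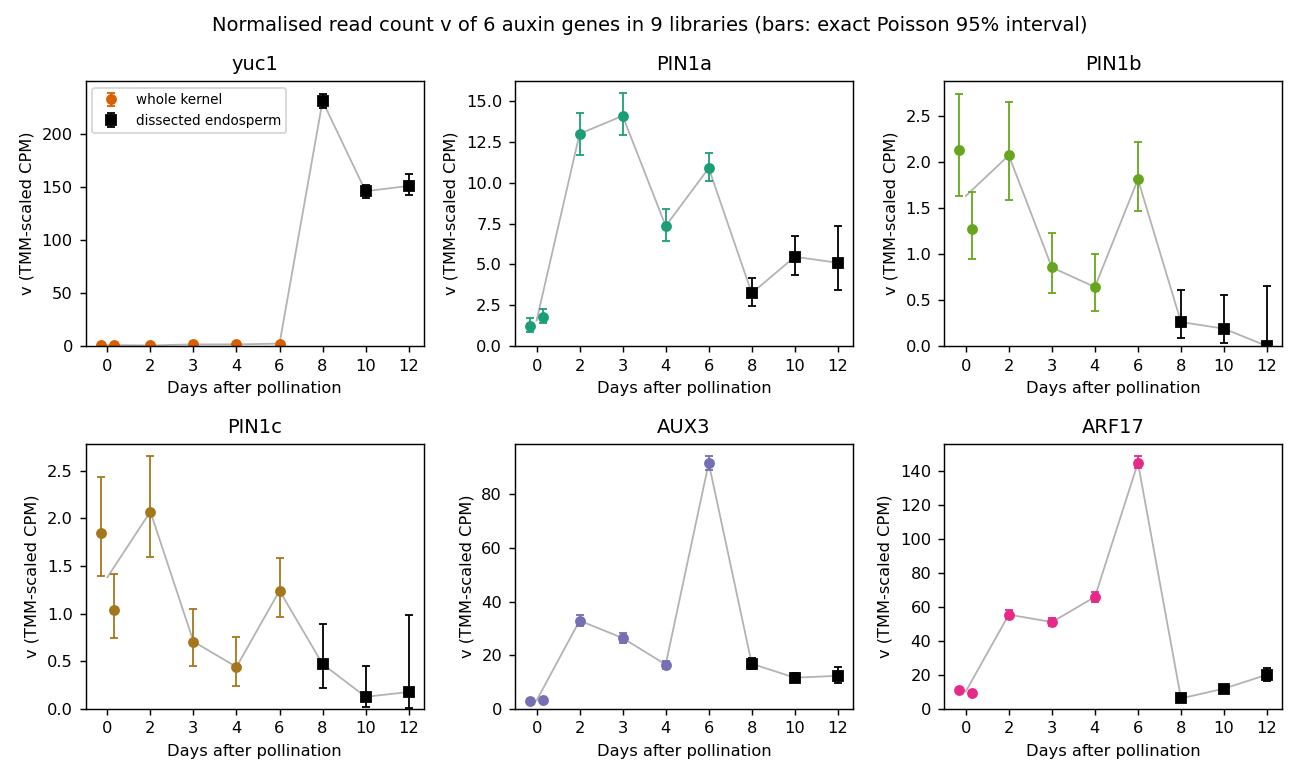
Normalised read count v (TMM-scaled CPM, linear axes from 0, 1 scale per panel) of each of the 6 genes against days after pollination. Circles are whole-kernel libraries, with the 0 DAP technical replicates side by side (a left, b right), squares are dissected endosperm, bars are exact Poisson 95% intervals and lines join stages. yuc1 reaches 231 at 8 DAP after at most 2.32 in kernels, AUX3 and ARF17 peak at 91.7 and 145 at 6 DAP, and PIN1b and PIN1c remain at or below 2.13.

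yuc1 encodes the YUCCA monooxygenase of the last step of auxin synthesis. It had 27 and 40 reads in the 0 DAP libraries a and b (v = 0.945 and 1.01), and 20, 54, 48 and 127 reads at 2, 3, 4 and 6 DAP (v = 0.658, 1.59, 1.62 and 2.32). In endosperm it had 4423, 2325 and 861 reads at 8, 10 and 12 DAP (v = 231, 146 and 151). Every endosperm library thus lay far above every kernel library. By the rule of size 0.45% of the 44687 detected models rose in endosperm against kernels. The share of models whose groups only do not overlap was not counted.

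At 8 against 6 DAP yuc1 rose 99.5-fold (95% interval 83.4 to 120), and over all pairs of an endosperm with a kernel stage the smallest ratio was 62.9-fold (95% interval 52.6 to 75.8). Tissue and age change together at this step, so the removal of maternal tissue, a larger share of endosperm in the sample, and more transcript per cell cannot be told apart. The marker sums of endosperm moved at the same step, with 3954 at 8 DAP and 32.2 at 6 DAP for the starchy endosperm genes. Those of the basal transfer layer were 3282 at 8 DAP and 746 at 6 DAP, and those of the embryo-surrounding region 96.2 and 120, so these were already well above their 0 DAP sums (12.1 and 0.382) at 6 DAP, when yuc1 was at 2.32. The part of cell composition in the yuc1 rise was not tested. Within endosperm v at 8 DAP was above that at 12 DAP by a ratio of 1.53 (95% interval 1.42 to 1.64), below the ratio of 4. It was more than 2 technical SDs of models with v beyond 100. That SD comes from the 0 DAP libraries, where v = 10 corresponds to 286 and 395 reads, against 56.8 at 12 DAP. It may be too small for 12 DAP, so this margin is not secure. v at 12 and at 10 DAP differed by a ratio of 1.04, with a counting interval of 0.957 to 1.12 that holds 1. Among the kernel stages no neighbours in the order of levels (6, 4, 3, 0 and 2 DAP) differed by more than 2 technical SDs.

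The course of yuc1 within endosperm depended on the definition of library size. As CPM of the library total it had 247, 77.3 and 23.6 at 8, 10 and 12 DAP, so that at 12 against 8 DAP it passed the rule with a difference of -3.34 on the log2 scale. The median over all 44687 models under that scaling was itself -1.46, against -0.07 under TMM. With DESeq2 size factors yuc1 had 235, 151 and 164, and with each library's 100 most counted models taken out of its total it had 307, 173 and 165. The rise against kernels passed the rule under every scaling tried, and by library total its smallest difference was 2.56 on the log2 scale.

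Reads of the storage protein genes at 0 to 4 DAP bear on the kernel values of yuc1. Over 27 zein models the median level at 0, 2, 3 and 4 DAP was 0.0653%, 0.0667%, 0.0615% and 0.069% of that at 12 DAP, and 0% at 6 DAP. The same shares of the yuc1 level at 12 DAP come to v = 0.0989, 0.101, 0.0932 and 0.105. The measured v of yuc1 was 0.984, 0.658, 1.59 and 1.62 at those stages. These shares hold only for reads that come from 12 DAP RNA, where the zein genes zp27 and zp15 had v = 5544 and 9701 and yuc1 had 151. At 8 DAP zp27 and zp15 had 746 and 1057 and yuc1 had 231, so shares of an 8 DAP source would be larger. At 0 to 4 DAP zp27 had 3.72 to 7.93 and zp15 had 9.28 to 14.2. The case of an 8 DAP source was not computed, so the shares of the 12 DAP level set no upper limit. How much of the kernel yuc1 level such reads make up, and their origin, were not tested.

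**Figure D2:**
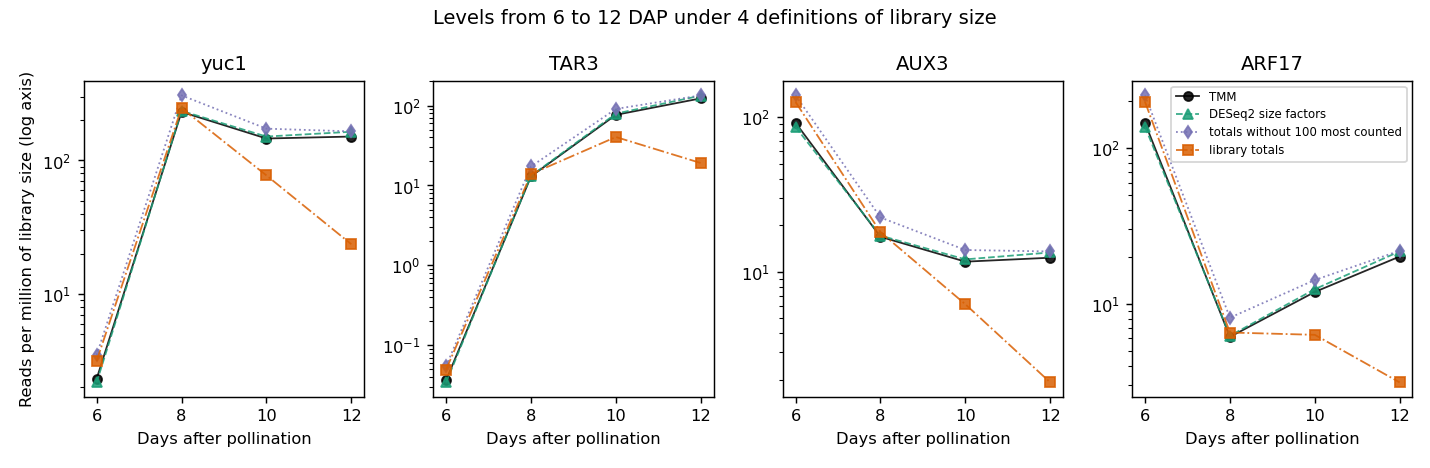
Level of yuc1, TAR3, AUX3 and ARF17 at 6, 8, 10 and 12 DAP (x axis) in CPM (log axis), with the library size defined in 4 ways, 1 symbol and line each. The 3 definitions that discount the most abundant models run close together, whereas by library total yuc1 is 23.6 and AUX3 1.92 at 12 DAP.

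The efflux carriers differed among themselves. PIN1a, which moves auxin out of cells at their polar face, had 35 and 71 reads in the 0 DAP libraries (v = 1.22 and 1.8) and v = 13, 14.1, 7.35 and 10.9 at 2, 3, 4 and 6 DAP. In endosperm it had 62, 87 and 29 reads (v = 3.24, 5.47 and 5.1). All later libraries lay above both 0 DAP libraries, and the kernels of 2 to 6 DAP lay above all endosperm libraries. The share of detected models with this order was not counted. By library total PIN1a had 3.46, 2.89 and 0.794 CPM at 8, 10 and 12 DAP and 1.98 and 2.81 in the 0 DAP libraries, so that under this scaling 12 DAP was below 0 DAP.

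PIN1a rose 8.33-fold at 2 against 0 DAP (95% interval 6.71 to 10.4). The ratio of 4 DAP to 0 DAP was 4.72 (95% interval 3.73 to 6.02), but v was below 10 at 4 DAP and the ratio of v + 1 was below 4, so the gene did not pass at all of 2, 3 and 4 DAP against 0 DAP. It passed at 2 and 3 DAP when 4 DAP was not required. The level at 8 DAP was 0.297 of that at 6 DAP (95% interval 0.225 to 0.386), short of the ratio of 4. In the order of its levels (3, 2, 6, 4, 10, 12, 8 and 0 DAP) no neighbouring stages differed by more than 2 technical SDs.

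PIN1b had v = 2.13 and 1.27 in the 0 DAP libraries a and b, and 2.07, 0.854, 0.641 and 1.81 at 2, 3, 4 and 6 DAP. It had 5, 3 and 0 reads at 8, 10 and 12 DAP, where 3 reads correspond to v = 0.157, 0.189 and 0.528. PIN1c had v = 1.85 and 1.04 at 0 DAP and 2.07, 0.706, 0.439 and 1.24 at 2 to 6 DAP, then 9, 2 and 1 reads in endosperm. Both carriers had lower values at 3 and 4 DAP than at 2 DAP, and the 0 DAP library a of PIN1b lay above all other libraries of that gene.

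At 3 against 2 DAP the ratio of v was 0.412 for PIN1b (95% interval 0.256 to 0.649) and 0.341 for PIN1c (95% interval 0.204 to 0.553), and at 6 against 4 DAP it was 2.83 for PIN1b (95% interval 1.72 to 4.89) and 2.84 for PIN1c (95% interval 1.55 to 5.6). At 8 DAP the level of PIN1b was 0.144 of that at 6 DAP (95% interval 0.0458 to 0.348) and that of PIN1c 0.378 (95% interval 0.166 to 0.761). These intervals exclude 1, but the technical replicates differed by ratios of 0.593 and 0.56 (b over a) for the same genes, also with intervals that exclude 1 (0.4 to 0.876 and 0.363 to 0.858). At 12 DAP the depth of the scaled library does not separate a level of 0 from one of up to 0.649 for PIN1b. Over the 8 stages log2(v + 1) of PIN1b and PIN1c had a Pearson correlation of 0.96, while either had 0.29 or less with PIN1a. The stages share their libraries and differ in depth, so these values describe the libraries only. No other model had counts within 2% of those of any of the 6 genes in every library, although reads shared in part between similar carrier genes would not show in this way.

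AUX3 bears a numbered AUX symbol. The name table gives symbols of the same series to BIF1 (AUX22) and rum1-like1 (AUX34), whose kind is known as Aux/IAA repressors, but it states no role for AUX3. It had v = 3.08 and 3.11 in the 0 DAP libraries a and b, 32.9, 26.4, 16.5 and 91.7 at 2, 3, 4 and 6 DAP, and 16.8, 11.6 and 12.3 at 8, 10 and 12 DAP. The 0 DAP libraries were the lowest and nearly equal, and 6 DAP stood alone at the top.

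AUX3 passed the rule at 3 steps. It rose 10.6-fold at 2 against 0 DAP (95% interval 9.14 to 12.4) and 5.57-fold at 6 against 4 DAP (95% interval 5.08 to 6.13). At 8 DAP it fell to v = 16.8, against 91.7 at 6 DAP, a ratio of 0.183 (95% interval 0.163 to 0.205). Its level at 2 DAP was 1.25 times that at 3 DAP (95% interval 1.14 to 1.36), within 2 technical SDs. At 4 DAP it was 0.624 of that at 3 DAP (95% interval 0.557 to 0.697). This was a difference of -0.65 in log2(v + 1), beside a technical SD of 0.38 for models between 10 and 100. At 6 DAP AUX3 was 2.79 times the 2 DAP level (95% interval 2.61 to 2.99), so it did not pass against all of 2, 3 and 4 DAP. Under TMM its endosperm levels lay above 0 DAP, at 10 DAP by 3.75-fold (95% interval 3.06 to 4.6), and on either side of the level at 4 DAP. By library total AUX3 had 18, 6.15 and 1.92 CPM at 8, 10 and 12 DAP and 4.97 and 4.86 in the 0 DAP libraries, so that 12 DAP was below 0 DAP and the 10 DAP level close to it. By that scaling it also passed the rule as lower at 12 against 8 DAP, which it did not under TMM (v = 12.3 and 16.8).

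ARF17 encodes an auxin response factor, a DNA-binding regulator of auxin target genes. It had v = 11 and 9.57 in the 0 DAP libraries and 55.5, 51.1, 65.9 and 145 at 2, 3, 4 and 6 DAP. In endosperm it had 117, 190 and 114 reads (v = 6.12, 11.9 and 20.1). All kernel libraries of 2 to 6 DAP lay above both 0 DAP libraries and above all endosperm libraries, while endosperm and 0 DAP overlapped. By library total they did not overlap, with 6.53, 6.31 and 3.12 CPM in endosperm and 17.7 and 14.9 in the 0 DAP libraries. How many detected models have either order was not counted.

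ARF17 rose 5.46-fold at 2 against 0 DAP (95% interval 4.99 to 5.97), and its smallest ratio over 2, 3 and 4 against 0 DAP was 5.03-fold at 3 DAP (95% interval 4.6 to 5.5). At 6 DAP it was 2.2 times its 4 DAP level (95% interval 2.1 to 2.32), short of the rule. At 8 DAP it fell to v = 6.12, against 145 at 6 DAP, 23.8-fold lower (95% interval 19.8 to 28.8). Its level at 12 DAP was 3.28 times that at 8 DAP under TMM (95% interval 2.51 to 4.28), but by library total it was lower at 12 DAP, so the direction within endosperm depends on the scaling. The falls of ARF17 and AUX3 at 8 DAP coincide with the summed v of the 4 maternal floral organ genes, 129 at 8 DAP and 1239 at 6 DAP. The part of this tissue change in the falls was not tested.

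The steps were read against all 44687 detected models. Of the 6 genes, 3 (PIN1a, AUX3 and ARF17) rose and none fell at 2 against 0 DAP, where 0.387% of models rose and 0.577% fell. None passed at 3 against 2 DAP (0.347% of models rose, 0.322% fell) or at 4 against 3 DAP (0.412% and 0.233%). At 6 against 4 DAP 1 rose, AUX3, beside 0.792% of models that rose and 0.499% that fell. At 8 against 6 DAP 1 rose, yuc1, and 2 fell, AUX3 and ARF17, beside 1.67% and 3.21% of models. None passed at 10 against 8 DAP (0.897% and 0.68%) or at 12 against 10 DAP (0.667% and 0.51%). The genes were chosen on these contrasts, so nothing is read from the counts beside the shares.

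**Figure D3:**
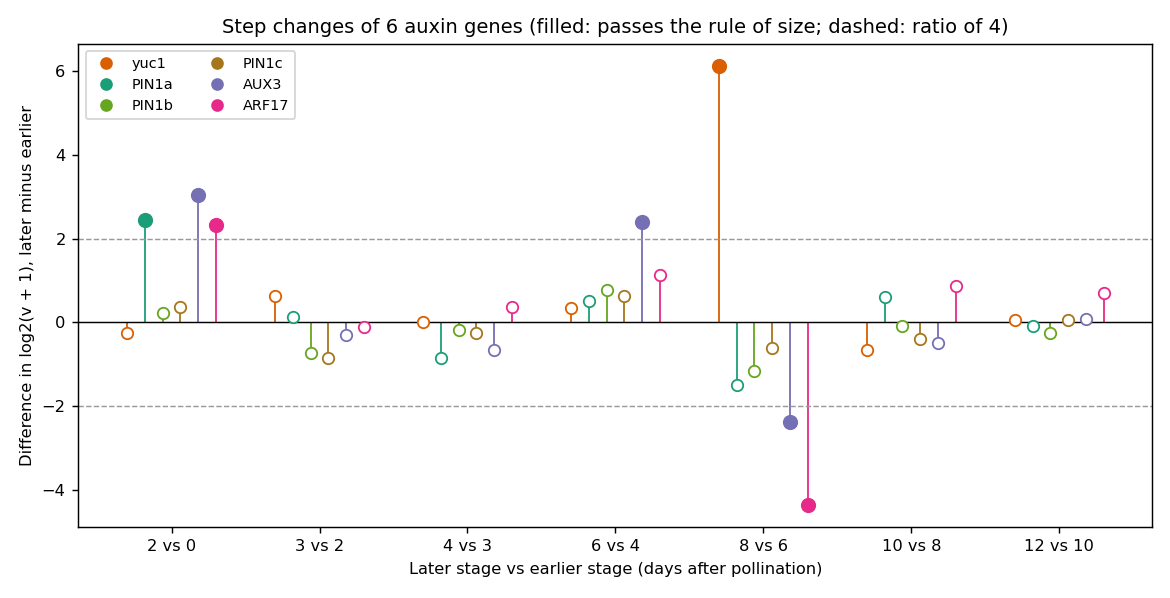
Difference in log2(v + 1) of each of the 6 genes at each step, later minus earlier stage (y axis), with the 7 steps along the x axis and 1 colour per gene. Filled points pass the rule of size, open points do not, and dashed lines mark a ratio of 4. The 7 filled points lie at 2 against 0, 6 against 4 and 8 against 6 DAP, from 6.13 for yuc1 to -4.36 for ARF17 at 8 against 6 DAP.

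Between groups of stages, 2 of the 6 genes (AUX3 and ARF17) rose at all of 2, 3 and 4 DAP against 0 DAP, where 0.0917% of models rose and 0.0917% fell. None passed at 6 DAP against all of 2, 3 and 4 DAP (0.515% and 0.159%). yuc1 alone of the 6 rose in endosperm against kernels (0.45% of models rose and 0.483% fell), and none passed at 12 against 8 DAP (1.55% and 1.8%). The highest stage was 2 DAP for PIN1b and PIN1c, as for 10.6% of detected models, 3 DAP for PIN1a (8.6%), 6 DAP for AUX3 and ARF17 (16.2%) and 8 DAP for yuc1 (14.3%). For PIN1a and PIN1b the highest stage did not differ from the next beyond counting error, with ratios of 1.09 (95% interval 0.952 to 1.25) and 1.14 (95% interval 0.821 to 1.59), and for PIN1c the ratio of 1.5 lay within 2 technical SDs.

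The rest of the pathway was followed over 56 further models found by symbol, of which 47 were detected. Their median log2 change at 2 to 4 against 0 DAP was 0.44, with 31 of 47 (66%) above 0 and none passing the rule. Over all detected models the median was 0.00 and 50.2% lay above 0, while 0.0917% rose and 0.0917% fell. In endosperm against kernels their median was -0.95, with 7 of 47 (14.9%) above 0, 1 rising and 2 falling. Over all models the median was -0.11 and 44.6% lay above 0, while 0.45% rose and 0.483% fell. By library total the median of the further genes was -2.04 and that of all models -1.07. At 6 against 2 to 4 DAP their median was -0.05, with 1 rising, and over all models 0.04, with 0.515% rising and 0.159% falling. At 12 against 8 DAP their median was -0.27, with 1 rising, and over all models -0.07, with 1.55% rising and 1.8% falling.

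Among synthesis genes, 4 of 8 further models were detected. TAR3 (GRMZM2G141810), a relative of the tryptophan aminotransferases that act before YUCCA, had v = 13, 76.5 and 123 at 8, 10 and 12 DAP and at most 0.206 in kernels. The zein shares given above, applied to its level at 12 DAP, come to 0.0756 to 0.0847 at 0 to 4 DAP, and its measured v was 0.147, 0.0329, 0.206 and 0 there. TAR3 and yuc1 were thus both high in endosperm and low in kernels, but their order within endosperm differed. TAR3 rose 9.43-fold at 12 against 8 DAP (95% interval 8.15 to 10.9), while yuc1 had 0.655 of its 8 DAP level at 12 DAP (95% interval 0.608 to 0.705). By library total TAR3 had 13.9, 40.4 and 19.1 CPM at 8, 10 and 12 DAP, and its change at 12 against 8 DAP did not pass the rule. Of the other YUCCA models, named after their values were seen, Yucca3 was highest at 6 DAP with v = 8.31, against at most 0.942 at any other stage, and Yucca6 had 0.362 to 3.57 over all stages. Yucca2 passed no comparison of groups, with a difference in mean log2(v + 1) of -0.95 at 2 to 4 against 0 DAP and -0.24 in endosperm against kernels. Yucca7, Yucca10 and Yucca12 had no read at any stage.

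The conjugating gene GH3 (GRMZM2G378106), whose kind links auxin to amino acids, rose at 6 DAP to v = 16, against 0.56, 0.589 and 0.81 at 2, 3 and 4 DAP, a smallest ratio of 19.8 (95% interval 13.2 to 31.1). It had 40.6, 24.2 and 24.5 at 8, 10 and 12 DAP. It did not pass in endosperm against all kernels, since 6 DAP was already high, and it passed when 6 DAP was not required.

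None of the 6 further efflux models passed a comparison of groups. PIN1d, PIN9 and br2 were named after their values were seen. PIN1d had v = 3.06 and 2.88 at 2 and 3 DAP and at most 0.558 at the other stages. PIN9 had 4.28 at 6 DAP and at most 0.189 at the others. br2, an ABCB-type auxin transporter gene, fell at 8 DAP to v = 1.36, against 22.8 at 6 DAP. With AUX6, AUX14 and ARF2 it made up the 4 of 47 further genes that fell at this step, where 3.21% of all detected models fell. The 3 auxin-binding protein genes of the list did not pass any comparison.

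Of 13 further detected models with an AUX symbol, 2 fell in endosperm against kernels, as did 0.483% of all detected models. AUX14 had v = 1.15, 1.13 and 1.76 in endosperm and 13.7 to 39.1 in kernels, and AUX6 had 3.14, 2.83 and 1.76 in endosperm and 19.2 to 49.3 in kernels. Both had their highest level at 6 DAP, as AUX3 did. The ratio nearest to 1 was 0.128 for AUX14 (95% interval 0.0612 to 0.236) and 0.163 for AUX6 (95% interval 0.124 to 0.211). The maternal floral organ sum was lower in endosperm too, and its part in these falls was not tested. Of 17 further detected ARF models none passed in endosperm against kernels or at 2 to 4 against 0 DAP. ARF4, named after its values were seen, had v = 36.1 at 0 DAP, 11 and 8.15 at 2 and 3 DAP, and 0.641 at 4 DAP, and it fell at 3 and 4 DAP against 0 DAP when 2 DAP was not required. ARF18, also named after its values were seen, had 574 at 0 DAP, 160 at 6 DAP and between 34.4 and 48.1 in endosperm.

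**Figure D4:**
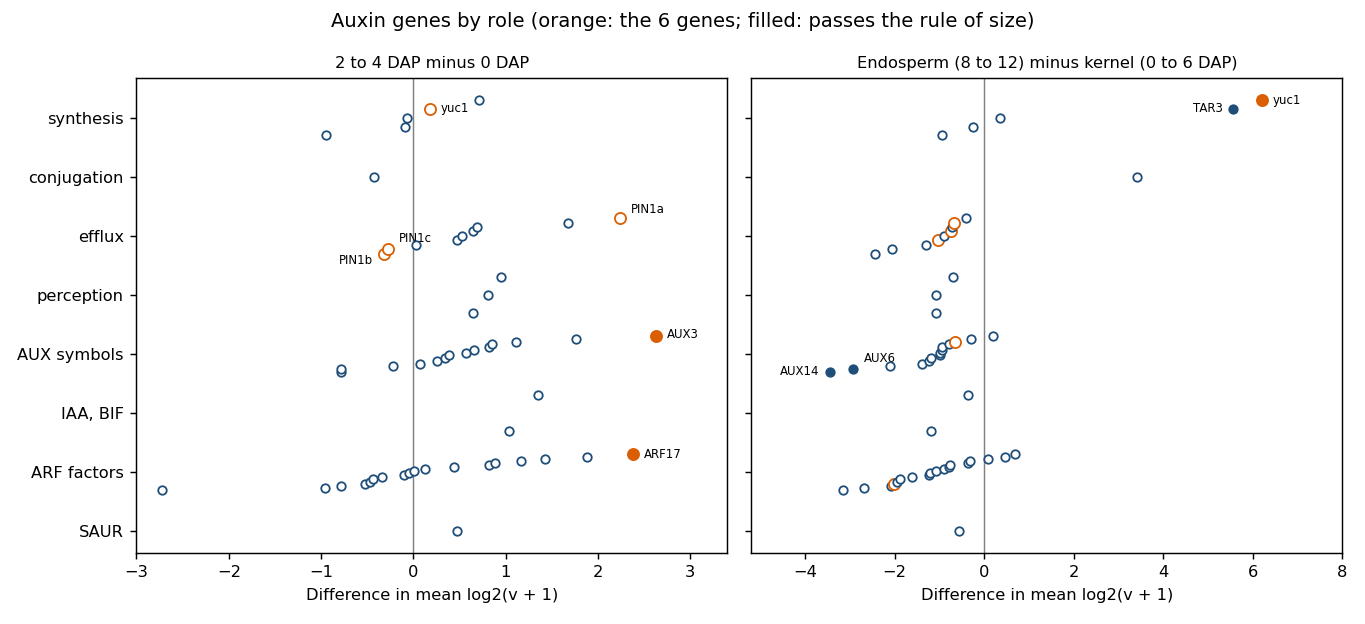
Difference in mean log2(v + 1) (x axes) of the detected auxin genes, 1 point per gene, by role (rows), at 2 to 4 against 0 DAP (left) and in endosperm against kernels (right). Orange points are the 6 genes described here, with PIN1a, PIN1b and PIN1c in the efflux row, blue points are further pathway genes, and filled points pass the rule. AUX3 and ARF17 stand at the right of their rows after pollination, and yuc1 and TAR3 at the right of theirs in endosperm, where AUX6 and AUX14 are the filled points on the left.

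The genes most like each of the 6 were ranked by the Pearson correlation of log2(v + 1) over the 8 stages, among 19942 models with v of at least 10 at a stage. The correlations describe 8 points that share their libraries, and they take no account of the size of a change. GRMZM2G398698, nearest to yuc1, ranged from v = 32.1 to 98.9, where yuc1 ranged from 0.658 to 231. GRMZM5G888697, nearest to AUX3, ranged from 13.4 to 21.4, where AUX3 ranged from 3.1 to 91.7. For yuc1, 521 models (2.61%) reached 0.95, and the nearest were GRMZM2G398698 (0.995), GRMZM2G170309 (0.994) and hao1 (GRMZM2G076239, 0.994). The next named models were nkd2 (also IDD9, 0.991), a regulator of aleurone identity, with v = 29.6, 41.7 and 34.5 in endosperm and at most 1.35 in kernels, and the legumin storage protein gene leg1 (0.984).

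For ARF17, 20 models (0.1%) reached 0.95, and the third nearest of all was another response factor, ARF2 (GRMZM2G153233, 0.973), behind GRMZM2G077942 (0.981) and GRMZM5G800842 (0.975). ARF2 had v = 8.5, 17.1, 19.7, 24.5 and 54.7 at 0, 2, 3, 4 and 6 DAP and 6.22, 8.3 and 11.8 in endosperm. Under TMM it too was thus highest at 6 DAP and lowest at 8 DAP. By library total ARF17 was lowest at 12 DAP, with 3.12 CPM against 6.53 at 8 DAP. ARF2 fell at 8 against 6 DAP, with a ratio of 0.114 (95% interval 0.0938 to 0.137), and did not pass after pollination. The other named models were NRH2b (0.953) and plt2 (0.95). For AUX3, 5 models (0.0251%) reached 0.95. The nearest were GRMZM5G888697 (0.973), GRMZM2G077036 (0.968) and GRMZM2G333354 (0.963), and the nearest named ones bHLH55 (0.932), VAP27-2 (0.902) and PDC (0.898).

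No model reached 0.95 for PIN1a. The nearest were GRMZM2G062036 (0.947), AGP2 (GRMZM2G027955, 0.939), which encodes a subunit of the starch enzyme ADP-glucose pyrophosphorylase, and GRMZM2G133841 (0.938), followed by the named hppd (0.916) and akr1 (0.893). AGP2 had v = 97.4 at 0 DAP, 461, 472, 429 and 345 at 2 to 6 DAP, and 159, 319 and 194 in endosperm. For PIN1b 16 models (0.0802%) and for PIN1c 6 models (0.0301%) reached 0.95. The nearest to PIN1b were GRMZM2G427529 (0.974), GRMZM2G058289 (0.962) and AC211370.4_FG007 (0.961), with hir2 (0.96), plr354a (0.959) and PP2C2 (0.955) the nearest named, and to PIN1c GRMZM2G094100 (0.968), GRMZM2G100889 (0.965) and GRMZM2G165426 (0.961), with D53 (0.956), tbp2 (0.944) and HAK18 (0.932). With v of at most 2.07 for both carriers, these likenesses rest on few reads.

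Among the 6 genes themselves, PIN1a had correlations of 0.82 with AUX3 and 0.81 with ARF17, and AUX3 and ARF17 had 0.77 with each other. yuc1 had negative values with all 5 others, from -0.21 with AUX3 to -0.87 with PIN1b. PIN1b had 5, 3 and 0 reads at 8, 10 and 12 DAP, so the latter value rests on few reads there. Tissue and age change together over these stages, and all these correlations describe the libraries only.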

How the data were processed

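For every library the authors deposited a table of raw read counts for 110028 gene models. The submitters' processing notes name bedtools. Not given in the sources used here are the genome build, how reads were aligned, which annotation release was counted and whether strand was used. RefSeq (assembly Zm-B73-REFERENCE-NAM-5.0) served for names alone and matched 4 of the 6 genes. PIN1b and PIN1c have no record there and bear their published names, and the table calls yuc1 yuc.

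TMM factors came from edgeR 4.0.16 (R 4.3.3). The level v is CPM over the effective library size they give, with the 0 DAP technical replicates summed. v = 10 corresponds to 547 reads at 6 DAP and 56.8 at 12 DAP. Intervals are exact Poisson for a level and exact conditional binomial for a ratio, at 95%. They cover counting error only, since reads are not independent molecules. The fold of a group comparison is of its pair of stages whose ratio lies nearest to 1, and a fold is a plain ratio of v. Levels are not compared between genes, as transcript lengths were not used here.

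The 6 genes and the lists were chosen with earlier results of these data known. Further pathway genes were found by whole symbol in records tied to 1 identifier. Yucca symbols were added after the names were read, and 6 symbols shared with other protein families or identifiers were left out. A planned screen of ARF and PIN matches by protein length was not run, for want of protein sequences. Models of other protein families under such symbols may therefore remain. Genes named are the 6, listed cell type markers, further genes that pass a group comparison, and the 3 nearest models and 3 nearest named models in pattern. Others with values given are said to be named after their values were seen. Promoter and protein sequences were not analysed here. Alternatives were plain library totals, totals less the 100 most counted models, size factors from DESeq2 1.42.0, a ratio of 2, no minimum level, 0.1 in place of 1 as pseudocount, counts thinned to the smallest total, each 0 DAP library alone, and subtraction of late endosperm reads. Leaving out the requirement at each stage in turn was added after seeing the data. Intervals were computed with scipy 1.17.1 under Python 3.11.15.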

Additional observations from a re-analysis of the deposited data

How the results depend on the processing

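The 6 genes passed the rule 7 times over the 7 steps, and the calls of the 6 genes at every step and group comparison were the same with DESeq2 size factors, totals without the 100 most counted models, no minimum level, a pseudocount of 0.1, thinned counts, either 0 DAP library alone and late endosperm reads subtracted. By library total 2 more calls were made, the falls of yuc1 and AUX3 at 12 against 8 DAP (2 genes lower, against 0), and no call was lost. That scaling also gave, for the further pathway genes, 14 lower and 0 higher at 12 against 8 DAP (main values 0 and 1), where the median of all models moved to -1.46 and that of the further genes to -1.43. It gave 4 lower in endosperm against kernels (main value 2) and 2 higher at 6 against 2 to 4 DAP (main value 1), the last also without the 100 most counted models. With no minimum level 3 further genes were higher at 6 DAP. With a ratio of 2 in place of 4, 2 of the 6 genes (AUX3 and ARF17) were higher at 6 against 2 to 4 DAP and 1 (ARF17) at 12 against 8 DAP, against 0 in both, and at the steps ARF17 was higher at 6 against 4 DAP and PIN1a lower at 8 against 6 DAP. The further genes then numbered 1 higher and 1 lower at 2 to 4 against 0 DAP, 4 and 1 at 6 DAP, 4 lower in endosperm, and 2 higher and 4 lower at 12 against 8 DAP. When single stages were not required, 3 of the 6 genes were higher after pollination without 4 DAP. Of the further genes 1 was lower without 2 DAP, and 2 were higher and 4 lower in endosperm without 6 DAP. The share of all detected models that passed under each alternative setting was not counted. Nothing is therefore read from the counts under these settings.

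No paired analysis was possible because each stage has 1 biological sample. Depth limits PIN1b and PIN1c most, with at most 9 reads per endosperm library, and 12 DAP most among stages, where 3 reads correspond to v = 0.528.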
